A study of Mus musculus with 6 samples.

Results

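The 8 genes described here encode the transcription factors that build and maintain the muscle gene programme. They are the MyoD family (Myod1, Myog, Myf5 and Myf6), the MEF2 factors Mef2a, Mef2c and Mef2d, and the homeobox gene Six4. Each was taken from the deposited value table through array features whose annotation lists 1 gene symbol only. Every one of the 8 had a single such feature, so no choice between features was needed, and the 8 are part of 30142 genes that had one. Mef2b, the remaining MEF2 gene, was represented by features that list another gene as well and was not used.

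Proteins of the MyoD family are basic helix-loop-helix factors that pair with E proteins and bind the E-box, a short DNA motif in the control regions of muscle genes. Myf5 and Myod1 commit cells to muscle and are made by activated satellite cells, the stem cells of muscle, Myog drives their terminal differentiation, and Myf6 (also called MRF4) is the family member found mainly in mature fibres. MEF2 factors are MADS-box proteins that act with the MyoD family and are held in check by class IIa histone deacetylases, and Six4 binds the MEF3 motif found in muscle promoters, among them that of Myog.

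Soleus, a slow postural muscle of the calf, came from male mice aged 39 to 41 weeks. There were 3 Control mice, labelled wild type and described as littermates, and 3 cKO mice, labelled DMP1 Cre Mbtps1 knockout, with 1 Affymetrix whole-transcript array for each mouse. In the cKO mice a Cre recombinase under regulatory sequence of Dmp1, an osteocyte gene, deleted Mbtps1, which encodes site-1 protease. The labels do not say whether the Control mice carried Cre or a floxed allele. The tissue was whole muscle. In whole muscle, fewer cells of a type and less RNA per cell cannot be told apart. Values are log2 signals, so a difference of 1 is a 2-fold change, and all differences are cKO minus Control.

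The mouse numbers fell in 2 ranges, with Control 1, Control 2 and cKO 1 (715, 716 and 733) in the low range and Control 3, cKO 2 and cKO 3 (776, 779 and 780) in the high range. The labels did not say what a range stands for. Array medians were 4.02 to 4.13 in Control and 4.004 to 4.37 in cKO, with cKO 1 the highest. Of 18334 genes tested with limma, 67% had a positive difference as deposited and 48.2% after quantile normalization, and the median difference was 0.07 and -0.0072. Mbtps1 stood at 7.39, 7.05 and 7.24 on Control arrays 1 to 3 and at 7.77, 7.44 and 7.11 on cKO arrays 1 to 3. Its difference of 0.21 (SE 0.21, limma adjusted p = 0.999) did not pass, and was 0.05 without cKO 1, 0.13 without Control 2, 0.38 without cKO 3 and 0.07 after quantile normalization. Which exons its feature covers, relative to the deleted part, is not known from the labels, so this does not check them. The 8 slow fibre markers, such as Myh7 and Tnnt1, all lay above the array median, with list means of 15.9 to 16.1 over the arrays.

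Myf6 and Myod1 were the members whose cKO arrays all lay above the Control arrays, and their differences were 1.07 and 0.59 log2 units. Mef2d differed by 0.65, Myog by 0.39 and Myf5 by 0.31, with groups that overlapped. Mef2a, Mef2c and Six4 differed by 0.07, -0.12 and 0.06, less than their standard errors. By limma, 0 of the 8 passed an adjusted p of 0.05, and the share over all genes tested was 0%. At an unadjusted p under 0.05, 2 members were higher and 0 lower, where 4.55% of genes tested were higher and 0.736% lower. These 2 were Myod1 and Myf6. They were also the 2 of 8 members with full separation in the upward direction, against a background of 12% of genes tested.

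**Figure D1:**
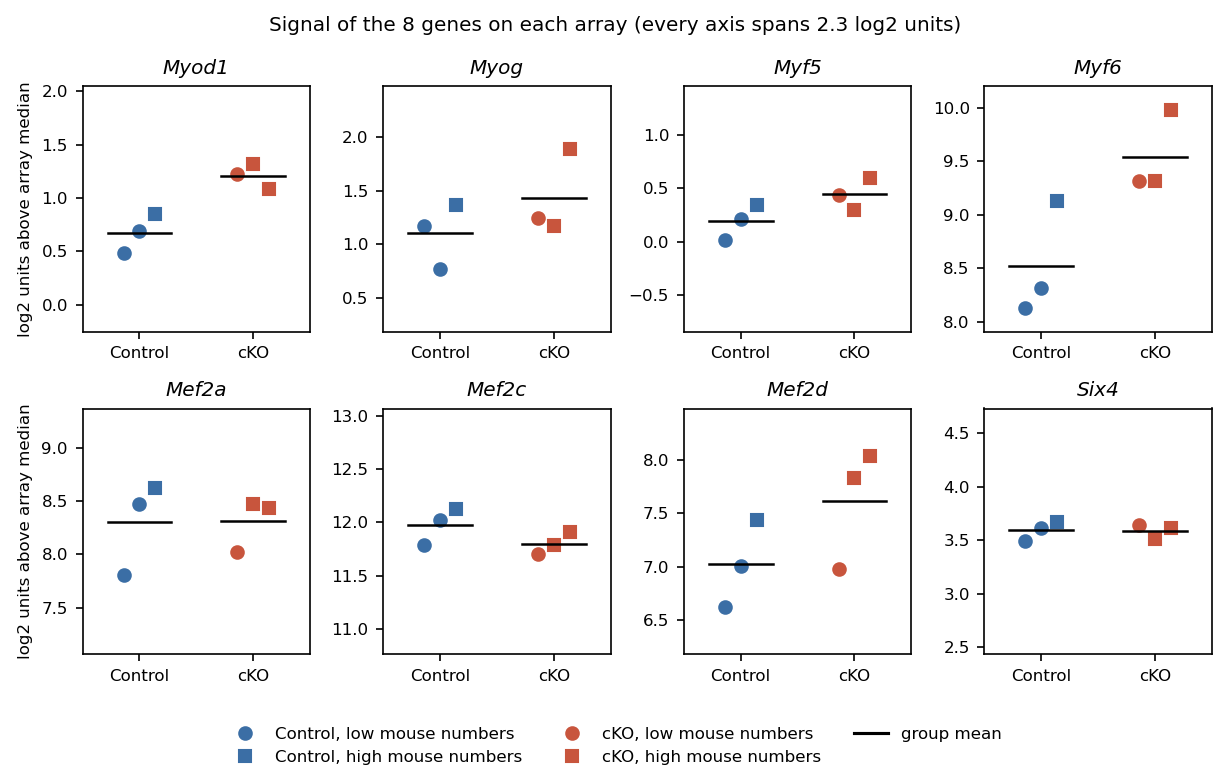
Each panel shows 1 gene, with the log2 signal above the array median (vertical axis) on the 3 Control and the 3 cKO arrays; circles are low and squares high mouse numbers, and bars are group means. The cKO arrays of Myod1 (1.08 to 1.31) and Myf6 (9.32 to 9.98) lie above all Control arrays, while the groups of the other 6 genes overlap.

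Myod1, the factor that can turn other cells into muscle, gave a log2 signal of 4.61, 4.72 and 4.93 on Control arrays 1 to 3 and of 5.59, 5.35 and 5.09 on cKO arrays 1 to 3. The groups did not overlap, being 0.16 log2 units apart at the closest pair, and cKO 1 was the highest. Relative to the median of its own array, the signal was 0.68 ± 0.19 (SD, n = 3) log2 units higher on the Control arrays and 1.21 ± 0.12 (SD, n = 3) on the cKO arrays, and here cKO 2 was the highest. Its signal exceeded that of 63.0% to 73.2% of all features on the arrays, so it lay not far above the middle of each array. The difference of 0.59 (SE 0.17, 95% interval 0.18 to 0.998) was 1.503-fold, with an unadjusted p of 0.0119 and an adjusted p of 0.999 in limma. Over the 17 alternatives in which it was tested the difference ran from 0.46 to 0.72. The unadjusted p was under 0.05 in 17 of these, and the adjusted p ran from 0.265 to 0.9999. The alternatives include other choices of feature, which could not change the difference because Myod1 had 1 feature.

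Myf5, expressed in satellite cells, stood at 4.15, 4.24 and 4.42 on Control arrays 1 to 3 and at 4.81, 4.33 and 4.60 on cKO arrays 1 to 3. The groups overlapped because cKO 2 lay below Control 3. Above the array median the values were only 0.19 ± 0.16 (SD, n = 3) on the Control arrays and 0.44 ± 0.15 (SD, n = 3) on the cKO arrays, with the lowest at 0.02 in Control 1, and 50.7% to 64.0% of features on an array were lower. A signal this close to the middle of the array limits what a difference in Myf5 can show. The difference was 0.31 (SE 0.16, 95% interval -0.07 to 0.70, limma adjusted p = 0.999). It was 0.20 without cKO 1 and 0.44 without cKO 2, where the unadjusted p was 0.0375 against 0.0954 with all arrays.

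Myog, which drives the exit from the cell cycle into fibre formation, gave 5.30, 4.79 and 5.45 on Control arrays 1 to 3 and 5.61, 5.204 and 5.90 on cKO arrays 1 to 3. Its groups overlapped, since cKO 2 lay below Control 1 and Control 3. The values were 1.10 ± 0.31 (SD, n = 3) above the array median on the Control arrays and 1.44 ± 0.40 (SD, n = 3) on the cKO arrays, above 67.4% to 77.6% of features. The difference of 0.39 (SE 0.25, 95% interval -0.19 to 0.98, limma adjusted p = 0.999) was smaller than the range within either group. It was 0.20 without Control 2 and 0.58 without cKO 2.

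The Myog promoter is shown because it carries motifs for all 3 kinds of factor in this set, together with those of Six4 and Mef2a, in which a motif of their own family was found. Promoters of 300 bases were taken from RefSeq on GRCm38.p6, where 6 of the 8 genes had 1 or more entries, 9 in all, and Myod1 and Myf6 were not matched. Both strands were searched for the E-box CANNTG, for MEF3 (TCAGGTT) and for the MEF2 element. The run CTATATTTAT was added after the Myog promoter had been read. Each stretch printed runs 5′ to 3′ on the gene's own strand from 150 bases before to 30 bases after an annotated start, 180 bases in all, and capitals mark the matches.
Myog, chr1:134289854-134290033, plus strand: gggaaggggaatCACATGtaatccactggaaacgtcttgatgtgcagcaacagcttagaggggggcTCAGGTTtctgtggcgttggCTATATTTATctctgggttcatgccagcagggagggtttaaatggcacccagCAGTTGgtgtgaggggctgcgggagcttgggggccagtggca
Six4, chr12:73113216-73113395, minus strand: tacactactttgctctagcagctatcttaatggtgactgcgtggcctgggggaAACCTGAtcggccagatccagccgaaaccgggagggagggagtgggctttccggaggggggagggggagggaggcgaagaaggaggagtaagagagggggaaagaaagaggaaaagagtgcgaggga
Mef2a, chr7:67372829-67373008, minus strand: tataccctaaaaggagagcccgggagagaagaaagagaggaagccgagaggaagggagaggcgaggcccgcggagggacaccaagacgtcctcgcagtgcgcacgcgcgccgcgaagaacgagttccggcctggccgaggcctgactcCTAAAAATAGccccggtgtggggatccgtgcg

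In the Myog stretch the capitals are, in order, an E-box that begins at position -138 from the start site, a MEF3 motif at -84, the run CTATATTTAT at -64 and a second E-box at -12. That run is known as the MEF2 site of Myog, and its last base keeps it out of the MEF2 element as searched. The capitals in Six4 are MEF3 on the opposite strand, beginning at -97, and those in Mef2a are the MEF2 element CTAAAAATAG, beginning at -2. Over all 32851 promoters of this length, 72.3% held an E-box, 4.07% MEF3, 1.86% the MEF2 element and 0.0731% the run CTATATTTAT. An upstream start of Mef2c also held MEF3 and 2 E-boxes, and 1 E-box was found at another start of that gene. The windows of Myf5 and Mef2d held no match to any of these letters. Neither did the window at a further annotated start of Six4, nor that at another start of Mef2c. A match describes these letters, and no factor's binding was measured.

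Myf6 had log2 signals of 12.26, 12.34 and 13.21 on Control arrays 1 to 3 and of 13.69, 13.35 and 13.99 on cKO arrays 1 to 3. The groups did not overlap, but Control 3 came within 0.14 of cKO 2, while Control 1 and Control 2 were about a log2 unit lower. Its signal was 8.52 ± 0.53 (SD, n = 3) above the array median on the Control arrays and 9.54 ± 0.38 (SD, n = 3) on the cKO arrays, and exceeded 96.5% to 98.1% of features. The difference was 1.07 (SE 0.32, 95% interval 0.31 to 1.84), or 2.10-fold, with an unadjusted p of 0.0134 and an adjusted p of 0.999 in limma. Without Control 3 it was 1.38, and without Control 1 it was 0.90. Without cKO 3 the unadjusted p rose above 0.05, to 0.0506, and the count of members past that level fell from 2 to 1. Myf5 and Myf6 are adjacent genes on chromosome 10, and each had its own feature. Their cKO 3 arrays were the highest relative to the array median and their Control 1 arrays the lowest. The same held for Mef2d, which lies on chromosome 3.

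Mef2d, a MEF2 factor that takes part in fibre differentiation, stood at 10.75, 11.03 and 11.52 on Control arrays 1 to 3 and at 11.35, 11.87 and 12.04 on cKO arrays 1 to 3. The high-numbered mice had the higher values in both groups, and cKO 1 lay below Control 3. Above the array median it measured 7.02 ± 0.41 (SD, n = 3) on the Control arrays and 7.62 ± 0.56 (SD, n = 3) on the cKO arrays. The difference was 0.65 (SE 0.29, 95% interval -0.04 to 1.34, limma adjusted p = 0.999), or 1.57-fold, with an unadjusted p of 0.0599. It was 0.45 with the number range in the model and 0.91 with limma's array weights, where the unadjusted p was 0.00396 and the adjusted p 0.265. The lowest value was 0.33, with quantile normalization and the number range together (unadjusted p = 0.149). Without Control 3 or cKO 1 it was 0.86 or 0.85, and the unadjusted p was then 0.0220 or 0.0272. Over the 18 alternatives the unadjusted p was under 0.05 in 5, and the adjusted p ran from 0.265 to 0.9999.

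Mef2c, which supports the sarcomere genes of adult fibres, had signals of 15.92, 16.04 and 16.20 on Control arrays 1 to 3 and of 16.08, 15.82 and 15.91 on cKO arrays 1 to 3. The groups overlapped, and the whole set of 6 arrays spanned 0.38 log2 units. The feature was 12.0 ± 0.17 (SD, n = 3) above the array median on the Control arrays and 11.8 ± 0.10 (SD, n = 3) on the cKO arrays, above 99.0% to 99.1% of features, and below the array maxima of 19.8 to 19.9. Its difference was -0.12 (SE 0.18, 95% interval -0.55 to 0.31, limma adjusted p = 0.999), and stayed negative in the 18 alternatives run, at -0.05 without Control 3, -0.06 without cKO 2, and -0.19 without Control 1 or cKO 1.

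Mef2a, another MEF2 factor of adult muscle, gave 11.94, 12.49 and 12.70 on Control arrays 1 to 3 and 12.40, 12.51 and 12.44 on cKO arrays 1 to 3. All cKO arrays lay inside the Control range. The level was 8.30 ± 0.43 (SD, n = 3) above the array median on the Control arrays and 8.31 ± 0.25 (SD, n = 3) on the cKO arrays, above 96.4% to 97.0% of features. The difference of 0.07 (SE 0.24, 95% interval -0.51 to 0.65, limma adjusted p = 0.999) turned to -0.03 after quantile normalization, to -0.02 with the number range in the model and to -0.15 without Control 1.

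Six4 stood at 7.63, 7.64 and 7.75 on Control arrays 1 to 3 and at 8.01, 7.54 and 7.62 on cKO arrays 1 to 3. Only cKO 1 was above the Control arrays, and it was also the array with the highest median. Once the array median was subtracted, Six4 was the same within 0.18 log2 units on all 6 arrays, at 3.59 ± 0.09 (SD, n = 3) on the Control arrays and 3.59 ± 0.07 (SD, n = 3) on the cKO arrays. Its difference as deposited was 0.06 (SE 0.18, 95% interval -0.38 to 0.49, limma adjusted p = 0.999), and its sign turned after quantile normalization, with a value of -0.08.

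**Figure D2:**
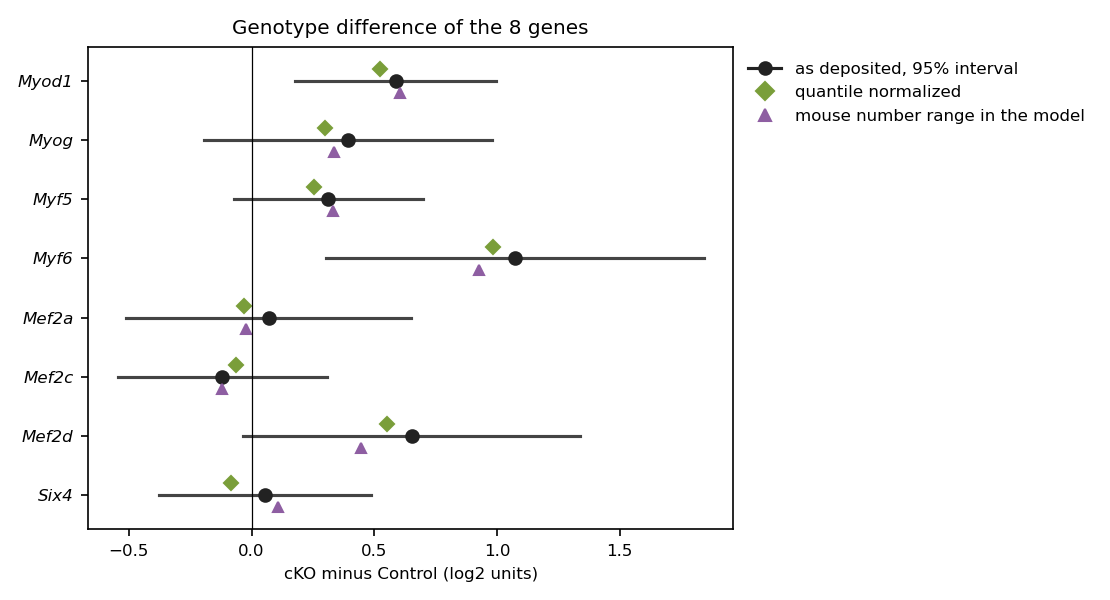
Circles give the difference cKO minus Control in log2 units for each of the 8 genes as deposited, with its 95% interval from limma; diamonds give it after quantile normalization and triangles with the mouse number range in the model. The intervals of Myod1 (0.18 to 0.998) and Myf6 (0.31 to 1.84) lie above 0, and those of the other 6 genes include 0.

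Within the low mouse numbers, where 1 cKO array faces 2 Control arrays, the difference was 0.93 for Myod1, 0.57 for Myog, 0.62 for Myf5 and 1.39 for Myf6. Within the high numbers, where 2 cKO arrays face 1 Control array, the same genes differed by 0.29, 0.11, 0.05 and 0.46. All 4 MyoD-family genes therefore had a positive sign in both ranges and a larger value in the low one. The share of all genes tested with that pattern was not taken. The median of all genes tested was 0.24 in the low and 0.0024 in the high numbers. After quantile normalization the low and high values were 0.66 and 0.38 for Myod1 and 1.06 and 0.50 for Myf6. They were 0.27 and 0.19 for Myog and 0.34 and 0.12 for Myf5, beside medians of all genes tested of -0.047 and 0.079. The gap between ranges was not tested.

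Mef2d was the MEF2 gene with a like difference in both ranges as deposited, 0.46 in the low and 0.44 in the high numbers. After quantile normalization these were 0.17 and 0.49. Mef2a, Mef2c and Six4 were positive in the low numbers (0.18, 0.09 and 0.38) and negative in the high numbers (-0.23, -0.34 and -0.17). In total 8 of the 8 members were higher in the low numbers, where 80.7% of genes tested were higher, and 5 of 8 in the high numbers, against 50.5%. As deposited, both counts are within 2 genes of what the shares of all genes would give for 8. After quantile normalization 7 of 8 members were higher in the low numbers, against 43.3% of genes tested. In the high numbers 5 of 8 were then higher, against 64.4%. With the number range in the model, limma gave 0.61 for Myod1 (unadjusted p = 0.0188) and 0.93 for Myf6 (unadjusted p = 0.0252), and 0 of 8 members passed an adjusted p of 0.05.

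**Figure D3:**
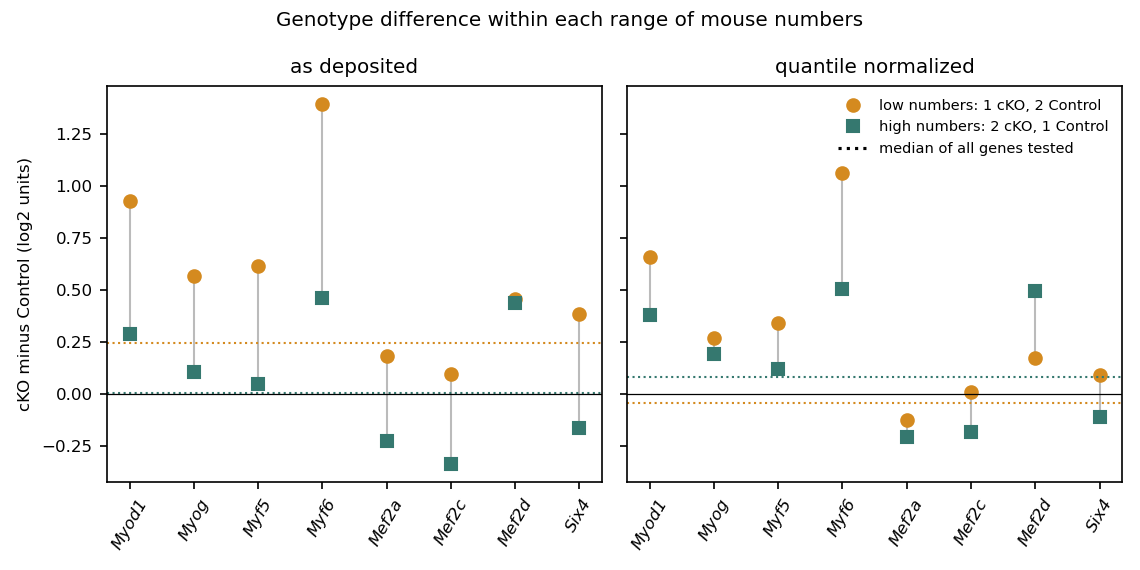
The difference cKO minus Control (log2 units) is drawn for each gene within the low (circles, 1 cKO and 2 Control arrays) and the high mouse numbers (squares, 2 cKO arrays and 1 Control array), as deposited and after quantile normalization; dotted lines are the medians of all genes tested. As deposited, Myod1, Myog, Myf5 and Myf6 are above 0 in both ranges and higher in the low one, and Mef2d is at 0.46 and 0.44.

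Markers of other cell types were set beside these values. The 10 satellite cell markers, Pax7 among them, had list means of 5.91 to 5.98 in Control and 6.07 to 6.14 in cKO, so the groups did not overlap, as for Myod1. After quantile normalization they overlapped, at 5.93 to 6.04 and 5.92 to 6.20. Pax7 itself, the factor that defines these cells, differed by 0.10 (SE 0.11), and 9 of the 10 markers had a mean above the array median. The 12 tendon cell markers stood at 5.33 to 5.98 in Control and at 6.45 to 6.66 in cKO, without overlap. After quantile normalization the tendon list means still did not overlap, at 5.41 to 5.95 and 6.26 to 6.70. Of the 12, the tendon transcription factor gene Mkx and Cilp2 did not pass the filter on low values. Of the 10 tested, 7 had full separation upward, against 12% of genes tested. The groups of Scx, Thbs4 and Kera overlapped, and Scx, another tendon transcription factor gene, differed by 0.07 (SE 0.15). The part of either list in the values of Myod1 and Myf6 was not tested.

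The 11 fast fibre markers had list means of 14.8 to 15.7 in Control and of 15.0 to 17.0 in cKO. The highest was cKO 2, while cKO 1 and cKO 3 lay below Control 2 and Control 3. Myod1 is known to be more abundant in fast muscle. Its highest array was cKO 1 as deposited and after quantile normalization, and cKO 2 relative to the array median. Macrophage markers (10 genes, 6.02 to 6.61 in Control and 6.35 to 7.23 in cKO) and endothelial markers (9 measured of 10, 8.52 to 9.43 and 8.71 to 8.89) overlapped between the groups. Of 10 bone and osteocyte markers 3 passed the filter on low values, and Dmp1, Sost and Phex were among the 7 that did not. The part of these lists in the members' values was not tested.

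**Figure D4:**
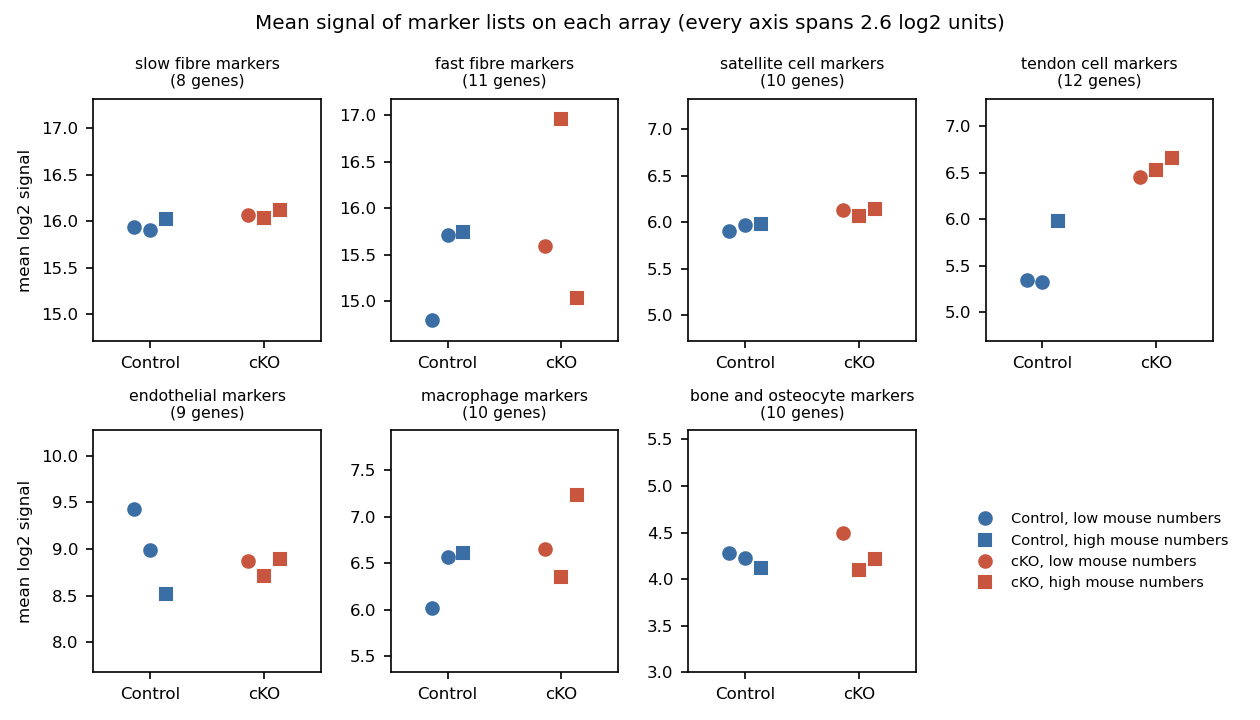
Each panel gives the mean log2 signal of 1 marker list on each of the 6 arrays, with circles for low and squares for high mouse numbers. The cKO arrays lie above all Control arrays for the tendon list (6.45 to 6.66 against 5.33 to 5.98) and, by a narrow margin, for the satellite cell list (6.07 to 6.14 against 5.91 to 5.98).

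Other genes of the pathway were read from lists of partners, inhibitors and targets. None of their genes passed an adjusted p of 0.05 in limma, so the counts that follow use the unadjusted p, under 0.05. In the main fit they are to be read against 4.55% higher and 0.736% lower among all genes tested. For other fits, such as those with an array left out, the share was taken only where it is printed beside the count. The E proteins, the obligate partners of the MyoD family, had 0 of 3 genes past that level. Tcf4 differed by 0.31 (SE 0.21), Tcf12 by 0.26 (SE 0.20) and Tcf3 by 0.07 (SE 0.16). Their median difference was 0.26, beside 0.07 over all genes tested, and was 0.16 without Control 1, 0.17 without cKO 3 and 0.15 after quantile normalization.

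Inhibitors of helix-loop-helix factors had 2 of 10 tested genes higher and 0 lower at this level, with a median difference of 0.08. Both were the repressors Bhlhe41, at 1.26 (SE 0.35), and Bhlhe40, at 1.204 (SE 0.40), which also take part in the circadian clock. Id1, an inhibitor that captures E proteins, stood at 8.99, 9.85 and 7.95 on Control arrays 1 to 3 and at 8.15, 7.98 and 8.42 on cKO arrays 1 to 3, a difference of -0.75 (SE 0.46), with Control 1 and Control 2 above all other arrays. Hes1, a Notch-driven repressor, differed by 0.36 (SE 0.26). The count of 2 was 1 without Control 1, Control 2, cKO 1 or cKO 3, and the median was 0.02 without cKO 1 and 0.16 without cKO 2. With array weights 1 gene was lower.

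The Eya, Dach, Pax and other regulator genes that work around Six4 had 0 of 9 tested genes higher and 1 lower. The latter was Dach2, a corepressor that acts with Six4 and also represses Myog, at -0.52 (SE 0.19), with signals of 6.35, 6.76 and 6.23 on Control arrays 1 to 3 and 6.003, 6.05 and 5.73 on cKO arrays 1 to 3. All its cKO arrays were below all Control arrays, which held for 2.12% of genes tested. Its relative Dach1 differed by -0.29 (SE 0.22), and the Eya genes Eya2 and Eya4, coactivators of the same family, by 0.16 (SE 0.15) and 0.28 (SE 0.27). Without Control 1, Control 2 or cKO 3 the count lower was 0, as it was in the fit blocked on mouse number range, in which Dach2 differed by -0.44 with an unadjusted p of 0.0586. With array weights 2 genes were lower. The median of the list was 0.10, but 0.0066 without Control 1, 0.15 without Control 2, 0.03 without Control 3 or cKO 1, and 0.02 after quantile normalization.

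Repressors, kinases and phosphatase genes that act on MEF2 had 1 of 17 tested genes higher, 0 lower and a median difference of 0.27. Rcan1, a calcineurin inhibitor whose own gene responds to calcineurin, differed by 1.41 (SE 0.50), and by 2.33 in the high against 0.99 in the low mouse numbers. Hdac4, a class IIa deacetylase that represses MEF2, differed by 0.86 (SE 0.41), with 7.82, 7.80 and 9.20 on Control arrays 1 to 3 and 9.42, 8.96 and 9.01 on cKO arrays 1 to 3. Control 3 was as high as the cKO arrays, and within the high numbers the Hdac4 difference was -0.22. Cabin1 and Camk2a, a MEF2 corepressor and a calcium-dependent kinase, differed by 0.27 (SE 0.13) and 0.39 (SE 0.20). The count of 1 was 0 without Control 1, cKO 1 or cKO 3, and 2 without Control 3. With array weights 5 genes were higher, where the share over all genes tested was 9.14%.

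The list of MyoD-family coactivators also held TEAD genes, Vgll genes and Lbx1. Of its tested genes 14 of 14 had a positive difference, against 67% of all genes, and 12 of 14 after quantile normalization, against 48.2%. At the unadjusted level 3 of 14 were higher, 4 had full separation upward, against 12% of genes, and the median was 0.22. Prmt5, an arginine methyltransferase that acts on chromatin with Myod1, differed by 0.70 (SE 0.20), and Carm1, another such enzyme, by 0.62 (SE 0.23). Vgll2, a muscle cofactor of TEAD proteins, differed by 1.17 (SE 0.36), and by 0.32 in the low against 1.70 in the high mouse numbers. Crebbp, an acetyltransferase, differed by 0.51 (SE 0.29). The count of 3 was 1 without cKO 2 or cKO 3, and with quantile normalization 1 gene had full separation upward and 2 were past the unadjusted level, against 5.92% and 2.72% of genes. Full separation downward then held for 1 gene. With array weights the count higher at the unadjusted level was 7, against 9.14% of genes. As deposited, a positive difference held for 3 of 3 E proteins, 6 of 10 inhibitors and 7 of 9 genes around Six4. It held for 15 of 17 genes that act on MEF2, 17 of 23 MyoD-family targets and 18 of 25 MEF2 targets. After quantile normalization these counts were 2, 5, 6, 14, 16 and 19.

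Target genes of the MyoD family had 6 of 23 tested genes higher and 0 lower at an unadjusted p under 0.05. Full separation upward held for 8 of 23, against 12% of genes tested. The median difference was 0.36, and was 0.18 without Control 1 and 0.24 after quantile normalization. Musk, a receptor tyrosine kinase of the neuromuscular junction, differed by 1.39 (SE 0.34). It stood at 10.38, 10.79 and 10.82 on Control arrays 1 to 3 and at 11.35, 12.33 and 12.49 on cKO arrays 1 to 3. The embryonic myosin gene Myh3 differed by 0.996 (SE 0.33), the adhesion molecule gene Ncam1 by 0.85 (SE 0.28) and the sarcoglycan gene Sgca by 0.59 (SE 0.19). After quantile normalization 5 were past the unadjusted level, against 2.72% of genes, and 3 had full separation upward, against 5.92%. Full separation downward then held for 1 gene. Leaving out an array changed the count of 6 to 2 without Control 1, to 4 without Control 2 or cKO 2, to 3 without cKO 3, and to 7 or 8 without cKO 1 or Control 3. With array weights it was 10, against 9.14% of genes.

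MEF2 target genes had 4 of 25 tested genes higher and 0 lower, 8 of 25 with full separation upward, against 12% of genes, and a median difference of 0.23. After quantile normalization 5 had full separation upward, against 5.92%, and 1 downward. Xirp1, which encodes an actin-binding protein of the intercalated disc and the myotendinous junction, stood at 14.12, 14.54 and 14.04 on Control arrays 1 to 3 and at 15.79, 15.78 and 16.09 on cKO arrays 1 to 3. Its groups lay more than a log2 unit apart, and the difference was 1.66 (SE 0.22, unadjusted p = 0.000154, limma adjusted p = 0.999). The immediate early gene Jun differed by 1.26 (SE 0.25), the importin gene Kpna2 by 0.73 (SE 0.22) and Srpk3, a muscle kinase controlled by MEF2, by 0.52 (SE 0.17). The count of 4 was 3 without Control 1 or cKO 3 and 5 without Control 2 or cKO 2. It was 7 with array weights, against 9.14% of genes, and 7 with no intensity trend, against 5.35%. With array weights 1 gene was lower. The median was 0.11 without cKO 2, 0.12 without Control 3 and 0.13 without cKO 1.

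**Figure D5:**
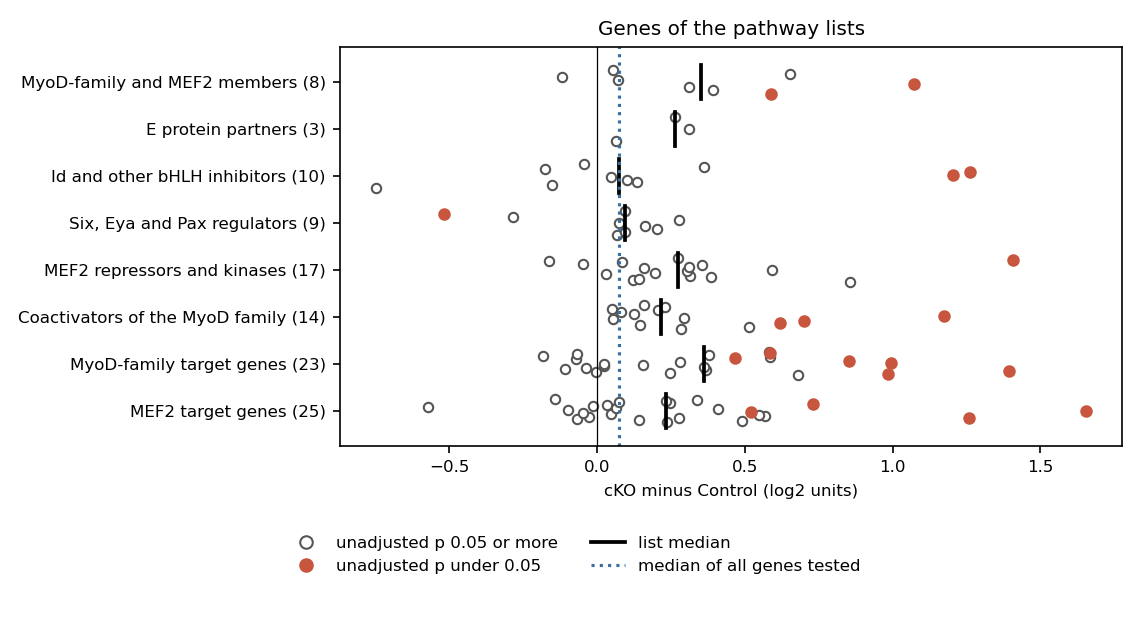
Each point is a tested gene, placed by its difference cKO minus Control in log2 units, in rows for the 8 genes and 7 related lists with the number tested in brackets; filled points have an unadjusted limma p under 0.05, thick bars are list medians and the dotted line is the median of all genes tested (0.07). The list medians run from 0.08 for the inhibitors to 0.36 for the MyoD-family targets.

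Likeness over the 6 arrays was described by Pearson's r after quantile normalization, among 18321 other genes tested whose values varied. The E protein gene Tcf4 was the gene most like Myog (r = 0.991), followed by the matrix protein gene Sparc (r = 0.98). For Myf6 they were Slamf9 (r = 0.993) and Bnc2 (r = 0.99), and for Myod1 Gm5070 and the small RNA gene Scarna9 (r = 0.994 and 0.987). Mef2d was most like Snx12 (r = 0.996), Mef2a like Erc2 (r = 0.996), Mef2c like Cyp4f17 (r = 0.98), Myf5 like Cd276 (r = 0.98) and Six4 like Gm23839 (r = 0.996). With 6 arrays such values come easily, as 63 genes exceeded 0.95 for Myf6 and 97 for Mef2d. Among the members themselves, Myf6 had r of 0.869 with Mef2d, 0.848 with Myf5, 0.837 with Myog and 0.674 with Myod1. Six4 ran opposite to Mef2a (r = -0.753) and Mef2d (r = -0.743). Of the genes compared, 89.8% had a higher r with Mef2a than Six4 had, and 90.9% had a higher r with Mef2d. Seen from Six4, 96.5% of genes had a higher r with it than Mef2a had, and 96.3% than Mef2d had. The points share arrays, genotype and mouse number range.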

How the data were processed

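The deposited table held 1 column of log2 signals per array. The log base was read from the range of the values, 1.92 to 19.9, and the sources used here do not state the background correction, summarisation, normalization, software or build. Per the labels' protocols, 100 ng of total RNA was converted to biotinylated cDNA. Of 72688 features, 6732 held no value. The platform annotation gave 1 symbol for 30604 features, several for 2146 and none for 33206, and 827 were updated to RefSeq. Depth has no counterpart on arrays, and 3 arrays per group limit the precision. Each array is 1 mouse.

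Features above their array median on at least 3 of 6 arrays were tested (33334 features, 18334 genes). All 8 members passed, each on all 6 arrays. The test was limma 3.58.1 under R 4.3.3 (two-sided, moderated with an intensity trend), with p-values adjusted by Benjamini-Hochberg over all features. The fit was tested on simulated data. A gene's feature was the one with the highest mean. For each list the 4 genes with the smallest p are named, and for each member the genes most like it. The members and lists were chosen with earlier results of these data known, so no set test was made. Mouse numbers were split at the largest gap. Figures used Python 3.11.15 and matplotlib 3.10.9. Replicate numbers of the titles were checked as a pairing over all features tested. Deviations of same-numbered arrays from their group means correlated at 0.13, -0.20 and 0.21, beside -0.41 to 0.39 for arrays of different numbers. The main fit did not pair the samples, and a replicate block was run as an alternative. Alternatives were quantile normalization, centring, other filters, other eBayes settings, array weights, blocks, each array left out, and other choices of feature. The last could not change the difference of a member, since each member had 1 feature, but they are counted among its alternatives.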

Additional observations from a re-analysis of the deposited data

How the results depend on the processing

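Of the 8 genes and Mbtps1, 0 passed an adjusted p of 0.05 in limma under any alternative. Mef2a and Six4 changed sign. Mef2a was -0.032 after quantile normalization, -0.023 with the number range as a block, -0.17 with both, and -0.15 (without Control 1) to 0.23 (without Control 3) with an array left out. Six4 was -0.083 after quantile normalization, -0.0027 after centring, -0.069 with array weights, -0.013 with quantile normalization and the range together, and -0.087 (without cKO 1) to 0.15 (without cKO 2) with an array left out, and the cause was not tested. The median of the inhibitor list was -0.0076 with quantile normalization and the range together, where 8 genes of the coactivator list were positive in place of 14. Under the filter at the 75th percentile Myod1, Myog and Myf5 were no longer tested, so 4 members were positive, 1 had full separation upward, 1 was past an unadjusted p of 0.05, and 3 of the genes that work around Six4 were positive. With the replicate number as a block 4 members were past the unadjusted level, Myod1, Myog, Myf6 and Mef2d. Over all features tested, deviations of same-numbered arrays correlated at 0.13, -0.20 and 0.21. Myog and Mef2d, however, kept the same order of arrays 1 to 3 in both groups. Leaving out each array gave 1 to 3 members past that level and 6 or 7 with a positive difference. The share over all genes was not taken for the counts in this paragraph. In the main fit 4.55% of genes tested were higher past that level and 67% had a positive difference. Taking the 75th percentile of the array as reference put Myod1, Myog and Myf5 below it, by means of -0.53, -0.20 and -1.16, and the other 5 genes above it. Signals this low limit what can be said of Myod1, Myog and Myf5.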

Other observations

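Mymk, which encodes the membrane protein that fuses muscle cells and is a target of the MyoD family, did not pass the filter on low values and was not tested. It stood at 3.50, 3.61 and 3.53 on Control arrays 1 to 3 and at 4.12, 4.0001 and 4.24 on cKO arrays 1 to 3, so the groups did not overlap, at a level near or below the array medians. Its partner in fusion, Mymx, passed the filter and differed by -0.11 (SE 0.14). The fetal acetylcholine receptor subunit gene Chrng, another target, was at 3.90 to 3.96 in Control and 4.02 to 4.16 in cKO, also below the filter. The adult subunit gene Chrne differed by less than its standard error of 0.14. These genes were chosen after their values were seen.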
